A study of Mus musculus with 14 samples.

Results

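Homologous recombination and Fanconi anemia repair genes were followed through a testis RiboTag experiment as a set of 40 genes, listed by symbol, and all 40 were found among 53239 gene symbols in the expression tables. RiboTag is a hemagglutinin-tagged copy of the ribosomal protein gene Rpl22, so that RNA bound to tagged ribosomes can be pulled down (IP) and compared with the total RNA of the same lysate (input). The tested mice were Adad2 M/M (the em3 mutation of Adad2, a testis RNA-binding protein gene) and the comparison mice were Adad2+/+, with 4 mutant and 3 wild-type animals, each giving 1 IP and 1 input library (14 in all). All animals were C57BL/6 males of 21 days and all carried 1 copy each of Rpl22-HA and of Stra8-iCre, so the controls carry the tag and the Cre as well. Stra8-iCre acts in differentiating germ cells, hence tagged ribosomes mark these cells and what develops from them, whereas the input holds every cell type of the whole testis.

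Homologous recombination mends a broken chromosome by copying an intact partner: the break is cut back to single-stranded DNA, coated by RPA and handed on by BRCA2 and its partners to invade the partner, and the joined molecules are then taken apart. The Fanconi anemia proteins clear cross-links between DNA strands by marking a clamp of FANCD2 and FANCI with ubiquitin and feeding the lesion into recombination. In the testis the same machinery mends the programmed breaks of meiosis, and mouse mutants of many of these genes lose germ cells.

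Each gene value is the sum of RSEM expected counts (reads shared out among transcripts by likelihood) over its Ensembl transcripts, assigned to gene symbols with GENCODE M21, 285 transcripts for the 40 genes. Library totals were 22987974 to 30871330 expected counts. The 40 genes took 0.224 to 0.271% of the counts in mutant IP, 0.170 to 0.182% in mutant input, 0.237 to 0.259% in wild-type IP and 0.185 to 0.193% in wild-type input. Adad2 itself, whose mutant allele leaves transcript to be counted, was at 4.30 to 8.35 TPM (transcript abundance scaled to length and library size) in mutant IP and 68.9 to 76.2 TPM in wild-type IP, and at 1.92 to 4.06 TPM in mutant input and 11.8 to 11.9 TPM in wild-type input. Some mutant libraries stood apart: annotated genes above 0 numbered 12744 to 15024 in mutant IP against 19655 to 21880 in wild-type IP, and the inputs of mutants 12 and 69 had 16024 and 15438 against 21334 to 27791 in the other 5 inputs. The fits that include mutants 12 and 69 were therefore also run without both, and calls or medians of these runs are given below. Values of single members and transcript shares were not repeated without them.

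Markers of 9 cell groups were read in the same way. Between IP and input, the edgeR median log2 fold change over spermatogonial markers was 2.78 in mutants and 2.30 in wild type (all 10 above 0 in both). Over early meiotic markers it was 1.095 in each (10 of 12 above 0 in both). Late pachytene and diplotene markers were split, at -0.11 in mutants and 0.37 in wild type (6 of 12 above 0 in both). Round spermatid markers lay mostly below input, at -3.34 in mutants (2 of 10 tested above 0) and -1.16 in wild type (4 of 13). Sertoli, Leydig, myoid and stromal, macrophage, and vessel and red blood cell markers had no gene above 0 in either genotype, with list medians from -7.41 to -3.61 in mutants and from -2.81 to -2.26 in wild type. Between genotypes in input, late pachytene and diplotene markers summed to 3469 to 4311 CPM (counts scaled to library size) in mutants and 4986 to 5676 CPM in wild type, with 0 of 12 above 0 (median -0.63), and round spermatid markers to 165 to 202 CPM and 304 to 397 CPM, with 0 of 13 tested above 0 (median -1.59). The 5 somatic lists had medians of 0.27 to 0.64 in the same contrast, and no marker of any list passed the test between genotypes. In whole tissue, fewer cells of a type and less RNA per cell cannot be told apart, and the part of these markers in the results below was not tested.

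Members' levels spanned a wide range. On the TPM scale, which allows for transcript length, the median member was at 23.4 TPM in mutant IP, 6.34 TPM in mutant input, 18.1 TPM in wild-type IP and 7.88 TPM in wild-type input. Slx4, which encodes a scaffold for cross-link nucleases, was the highest in both inputs (66.8 TPM in mutants and 112 TPM in wild type) and in wild-type IP (211 TPM). Rad18, a ubiquitin ligase gene that acts at stalled forks and is expressed in the male germ line, was the highest in mutant IP at 182 TPM. Rad51b, whose product belongs to the BCDX2 complex, was the lowest in every group, at 0 TPM in mutant IP and 0.223 TPM in wild-type IP, and at 0.055 TPM in mutant input and 0.240 TPM in wild-type input.

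Several role groups had the same leading member throughout. Fancg led the core complex in all 4 groups (83.2 TPM in mutant IP, 55.8 TPM in wild-type IP) and Fancf was its lowest member (1.17 and 1.90 TPM). Among Brca2, Palb2, Brip1 and Bard1, Brca2 led in every group (48.8 TPM in mutant IP, 49.99 TPM in wild-type IP). Bard1, the partner of BRCA1, was the lowest of them (5.92 and 7.44 TPM). Rpa1, the large RPA subunit gene, was at 166 TPM in mutant IP and 210 TPM in wild-type IP. Rad51c led the group of Rad51b, Rad51c, Rad51d, Xrcc2 and Xrcc3 (29.0 and 35.3 TPM). Mre11a, the nuclease subunit gene of the MRN complex, led the resection and ATM group in both IP fractions (69.2 and 57.6 TPM), whereas Rbbp8 led it in wild-type input at 21.0 TPM.

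The first comparison asked which of these transcripts were over-represented on tagged ribosomes. A member was called at an edgeR adjusted p under 0.05 over all features tested, with the animal as a block. In mutants, 6 of the 39 members tested were higher in IP than in input and 0 were lower, where 6.35% of all features were higher and 3.56% lower. In wild type, 19 of 40 were higher and 1 was lower, where 13% of all features were higher and 6.37% lower. The median member had a log2 IP/input of 0.51 in mutants and 0.87 in wild type, against -0.63 and -0.60 over all features tested. The gap was smaller where no library had under 10 counts of a feature: members were then at 0.35 in mutants and 0.72 in wild type, and all features at -0.020 and -0.086. These medians rest on each genotype's own scaling, so they do not compare the genotypes. The 6 members called in mutants were all among the 20 called in wild type, that is 100% of the first list and 30.0% of the second.

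DESeq2 called 12 members higher and 3 lower in mutants, where 13.9% of features were higher and 29.9% lower, and 29 higher and 2 lower in wild type, where 22.9% were higher and 31.2% lower. Leaving out mutant animals 1 at a time left 1 to 3 members called, and 636 to 1004 of all features higher. Without mutants 12 and 69 edgeR called 0 members, but it also called only 6 features higher and 6 lower of 31795. At an unadjusted edgeR p under 0.05, 8 members lay above and 1 below input, and 2696 of all features above and 2547 below. Without wild-type animal 121 or 140, edgeR called 0 wild-type members, and 0 of all 36015 or 36735 features either. At an unadjusted edgeR p under 0.05, 22 or 23 members lay above and 1 below input. Of all features, 5031 or 5675 lay above and 3136 or 3708 below at that p. Without animal 17 it called 11 members, and 2666 features higher and 1088 lower of 37065. IP exceeded input in all 4 mutants for 14 of the 40 members, and in all 3 wild-type animals for 30 of the 40. These counts rest on unlike numbers of animals and on each genotype's own scaling, so they do not compare the genotypes. The share of all features that did so was not counted.

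**Figure D1:**
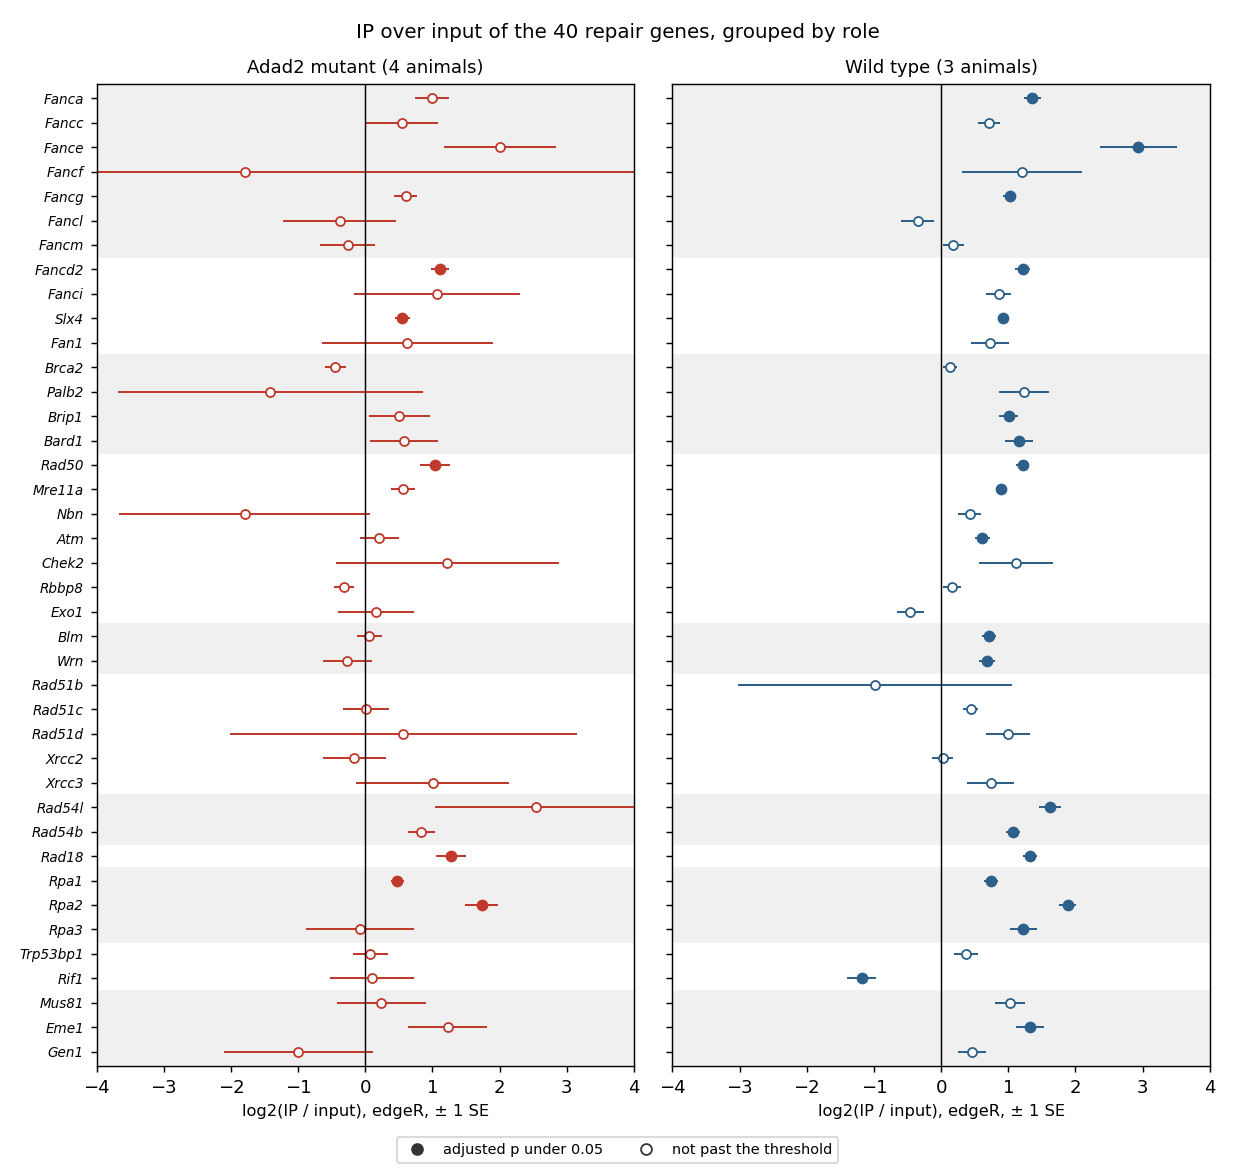
Log2 IP/input of each member (horizontal axis, edgeR estimate with 1 SE either way, cut at 4 on each side) in Adad2 mutants and wild type, with members grouped by role in shaded bands and filled points at an adjusted p under 0.05. In wild type 36 of 40 members lie above 0, and in mutants 28 of 39, with wider errors. Of all features tested, 39.1% lie above 0 in wild type and 38.8% in mutants. Each genotype is on its own scaling, so the panels do not compare the genotypes.

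Of the 6 members called in both genotypes, Rpa2 of the RPA trimer, which binds single-stranded DNA, had the largest log2 fold change in each. Rpa2, the subunit that is phosphorylated upon damage, had 85.2, 92.6, 92.6 and 133 CPM in mutant IP and 30.3, 17.3, 36.7 and 41.2 CPM in mutant input. In wild type it had 105, 96.5 and 107 CPM in IP and 24.2, 28.7 and 31.01 CPM in input. IP was above input in all 7 animals with no overlap between fractions, and the log2 fold change was 1.73 (SE 0.24, edgeR adjusted p = 0.00957) in mutants and 1.88 (SE 0.12, edgeR adjusted p = 0.00642) in wild type. Rpa1 had 378, 334, 293 and 263 CPM in mutant IP and 279, 249, 194 and 195 CPM in mutant input. In wild type Rpa1 had 477, 371 and 427 CPM in IP and 246, 233 and 281 CPM in input. Every animal was higher in IP, by a log2 fold change of 0.47 in mutants (SE 0.10, edgeR adjusted p = 0.0327) and 0.74 in wild type (SE 0.10, edgeR adjusted p = 0.0182). Rpa3, the small subunit, had 7.98 to 23.9 CPM in mutant IP against 10.5 to 25.1 CPM in mutant input, which overlapped, and 16.1 to 18.3 CPM in wild-type IP against 6.60 to 8.43 CPM in wild-type input, where it was called higher (log2 1.23, edgeR adjusted p = 0.0273).

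The promoters of Rpa2, Rad18 and Rpa1, called higher in IP in both genotypes, are shown to give their gene context, from 250 bases before to 50 after the start, 5′ to 3′ on the gene's strand, as RefSeq gives them on GRCm38.p6. Capitals mark CCAAT boxes (CCAAT) and ETS-type motifs (CCGGAAG or CGGAAGT), on either strand and merged where matches overlap, in Rpa2 at chr4:132768110-132768409, plus strand. Only ETS-type motifs are marked in Rad18 at chr6:112696621-112696920 and only CCAAT boxes in Rpa1 at chr11:75348334-75348633, both on the minus strand.
Rpa2: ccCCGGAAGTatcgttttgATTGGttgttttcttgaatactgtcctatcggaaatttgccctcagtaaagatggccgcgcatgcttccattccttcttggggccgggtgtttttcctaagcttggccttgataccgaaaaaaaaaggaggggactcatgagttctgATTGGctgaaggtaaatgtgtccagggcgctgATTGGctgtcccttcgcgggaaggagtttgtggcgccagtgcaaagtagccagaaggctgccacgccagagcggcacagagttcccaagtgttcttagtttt
Rad18: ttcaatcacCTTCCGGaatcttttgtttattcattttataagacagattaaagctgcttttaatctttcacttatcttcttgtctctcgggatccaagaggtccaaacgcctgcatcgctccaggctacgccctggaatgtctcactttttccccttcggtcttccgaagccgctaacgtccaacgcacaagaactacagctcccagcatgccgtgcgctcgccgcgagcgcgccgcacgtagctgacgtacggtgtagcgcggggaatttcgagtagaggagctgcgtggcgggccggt
Rpa1: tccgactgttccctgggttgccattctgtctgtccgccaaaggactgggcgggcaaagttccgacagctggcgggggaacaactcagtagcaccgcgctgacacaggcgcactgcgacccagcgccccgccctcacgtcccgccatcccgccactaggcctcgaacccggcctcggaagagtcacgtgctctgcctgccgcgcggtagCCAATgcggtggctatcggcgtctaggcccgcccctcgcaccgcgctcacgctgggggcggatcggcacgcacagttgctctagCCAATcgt
A promoter window of 300 bases was held for 30 of the 40 members, and 7 motifs were searched on both strands. A CCAAT box stood in 18 of the 30 (60.0%), where 41.1% of all 27025 genes with a window hold one, and an ETS-type motif in 11 of 30 (36.7%), where 12.2% of all genes do. The E2F-type motif (TTTGGCGC, TTTCGCGC, TTTCCCGC or TTTGCCGC) stood in 5 of 30 (16.7%), namely Bard1, Brca2, Chek2, Fancg and Rad51c, where 2.61% of all genes do. The MYB-type motif AACNGNC stood in 12 of 30 members and 36.0% of genes, the NRF1 core CGCATGCG in 2 of 30 and 2.07%, the CRE TGACGTCA in 2 of 30 and 2.03%, and the CHR TTTGAA in 3 of 30 and 20.2%. The windows of the members were richer in G and C, with a median of 57.7% against 52.7% over all windows, and these matches are a description of letters, with no test.

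Among cross-link repair genes, Fancd2 and Slx4 were called in both genotypes. Fancd2, the ubiquitinated clamp subunit, had 181, 121, 177 and 205 CPM in mutant IP and 70.8, 60.5, 86.4 and 96.9 CPM in mutant input. In wild type it had 209, 184 and 195 CPM in IP and 75.7, 86.0 and 91.9 CPM in input. The fractions did not overlap in either genotype, and the log2 fold change was 1.12 in mutants (SE 0.13, edgeR adjusted p = 0.00564) and 1.22 in wild type (SE 0.11, edgeR adjusted p = 0.00876). Slx4 had 312, 303, 223 and 246 CPM in mutant IP and 194, 236, 164 and 150 CPM in mutant input. In wild type Slx4 had 403, 340 and 374 CPM in IP and 222, 188 and 181 CPM in input. Each animal was higher in IP, although the lowest mutant IP lay under the highest mutant input, and the log2 fold change was 0.55 in mutants (SE 0.12, edgeR adjusted p = 0.0358) and 0.92 in wild type (SE 0.08, edgeR adjusted p = 0.00795). Fanci, the other clamp subunit, ranged from 19.5 to 97.4 CPM in mutant IP and from 2.58 to 60.2 CPM in mutant input, and Fan1, a cross-link nuclease gene, from 2.47 to 20.8 CPM and 3.37 to 8.32 CPM; neither was called in either genotype.

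In the core complex, a ubiquitin ligase for the clamp, 3 of the 7 genes were called higher in wild type: Fanca (log2 1.36, SE 0.13, edgeR adjusted p = 0.00846), Fancg (log2 1.02, SE 0.10, edgeR adjusted p = 0.00966) and Fance (log2 2.94, SE 0.57, edgeR adjusted p = 0.0400). Fanca, which encodes a large structural subunit, had 57.2, 60.8, 46.7 and 42.4 CPM in mutant IP and 27.3, 32.6, 18.9 and 26.0 CPM in mutant input, and in wild type 50.3, 48.7 and 50.4 CPM in IP and 18.6, 17.8 and 22.2 CPM in input. Fancg, a scaffold subunit gene, had 98.5, 93.1, 57.6 and 54.7 CPM in mutant IP and 68.1, 54.8, 41.3 and 35.5 CPM in mutant input, and in wild type 97.2, 73.3 and 91.0 CPM in IP and 44.6, 40.4 and 43.2 CPM in input. Both were above input in all 4 mutants without passing the test there (log2 0.99, edgeR adjusted p = 0.0694, and log2 0.60, edgeR adjusted p = 0.101). Fancl, the catalytic subunit, and Fancm, which anchors the complex at the fork, were not above input in every animal of either genotype: their log2 IP/input was -0.38 and -0.26 in mutants and -0.35 and 0.18 in wild type. None of these 4 values passed the test, and Fancf had 2 mutant IP libraries and 1 mutant input library at 0.

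Among end resection and signaling genes, the MRN subunits differed. Rad50, which tethers the DNA ends, had 34.7, 91.4, 68.3 and 102 CPM in mutant IP and 13.9, 37.3, 47.0 and 50.7 CPM in mutant input. In wild type it had 90.3, 85.1 and 91.6 CPM in IP and 35.8, 39.4 and 39.6 CPM in input. IP exceeded input in each animal, most tightly in wild type, with a log2 fold change of 1.04 in mutants (SE 0.23, edgeR adjusted p = 0.0406) and 1.22 in wild type (SE 0.10, edgeR adjusted p = 0.00699). Mre11a had 80.6, 101, 99.2 and 84.1 CPM in mutant IP and 57.6, 80.5, 53.8 and 57.4 CPM in mutant input, and in wild type 120, 101 and 106 CPM in IP and 61.5, 55.6 and 58.7 CPM in input. It was called in wild type (log2 0.89, SE 0.08, edgeR adjusted p = 0.00836), and in mutants all 4 animals were above input at log2 0.56 (edgeR adjusted p = 0.119). Nbn, the third MRN subunit gene, was not called, with 0 to 35.2 CPM in mutant IP and 30.4 to 37.9 CPM in wild-type IP. Atm, the break-signaling kinase gene, was called higher in wild type (log2 0.61, edgeR adjusted p = 0.0340), whereas the resection genes Rbbp8 and Exo1 were not called, at log2 -0.31 and 0.16 in mutants and 0.16 and -0.46 in wild type.

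Brca2, a mediator of strand invasion that was abundant in both fractions, was not called. It had 246, 139, 188 and 184 CPM in mutant IP and 250, 244, 274 and 242 CPM in mutant input. In wild type it had 152, 182 and 209 CPM in IP and 155, 175 and 162 CPM in input. The mutants were below input in all 4 animals (log2 -0.44, SE 0.15, edgeR adjusted p = 0.155) and wild type on both sides of it (log2 0.13, SE 0.11, edgeR adjusted p = 0.436). Brip1, a helicase gene, and Bard1 were called higher in wild type at log2 1.005 and 1.16 (edgeR adjusted p = 0.02002 and 0.0315). Palb2, the bridge between BRCA1 and BRCA2, was not called there (log2 1.24, edgeR adjusted p = 0.106).

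The Brca2 promoter (chr5:150522371-150522670, plus strand) and that of Fancg (chr4:43010252-43010551, minus strand), both on GRCm38.p6 from RefSeq, are shown as examples of the members that share an E2F-type motif, in capitals.
Brca2: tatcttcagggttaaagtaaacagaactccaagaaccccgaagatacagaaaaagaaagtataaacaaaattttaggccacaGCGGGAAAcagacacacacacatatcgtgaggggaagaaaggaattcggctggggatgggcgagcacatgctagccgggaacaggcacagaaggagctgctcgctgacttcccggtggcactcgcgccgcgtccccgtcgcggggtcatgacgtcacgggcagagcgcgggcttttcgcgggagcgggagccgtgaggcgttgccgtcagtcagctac
Fancg: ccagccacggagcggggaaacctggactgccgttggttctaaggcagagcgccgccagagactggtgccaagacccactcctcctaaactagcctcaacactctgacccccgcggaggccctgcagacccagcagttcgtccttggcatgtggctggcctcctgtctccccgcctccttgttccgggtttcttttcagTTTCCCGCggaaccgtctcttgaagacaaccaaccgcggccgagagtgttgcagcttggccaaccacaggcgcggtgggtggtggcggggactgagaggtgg
These 2 genes had unlike IP/input values, Fancg being called in wild type and Brca2 not.

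Of Rad51b, Rad51c, Rad51d, Xrcc2 and Xrcc3, whose products assist strand invasion, edgeR called 0 of 5 in either genotype. Rad51c had 19.7 to 48.3 CPM in mutant IP against 25.7 to 39.7 CPM in mutant input, and 41.9 to 44.5 CPM in wild-type IP against 29.6 to 33.7 CPM in wild-type input (wild-type log2 0.44, edgeR adjusted p = 0.0782). Xrcc2 lay close to input in wild type (log2 0.02, SE 0.15). The translocase genes Rad54l and Rad54b, whose products help strand invasion, were both called higher in wild type. Rad54l had 46.1, 22.5, 29.2 and 27.2 CPM in mutant IP and 6.18, 0.0279, 17.2 and 15.4 CPM in mutant input, the input of mutant 69 being close to 0. In wild type Rad54l had 24.5, 30.6 and 35.3 CPM in IP and 8.72, 10.1 and 10.2 CPM in input (log2 1.62, SE 0.16, edgeR adjusted p = 0.00952). Rad54b had 76.5, 58.2, 74.4 and 81.5 CPM in mutant IP and 46.1, 40.8, 35.1 and 40.7 CPM in mutant input, and in wild type 58.8, 58.7 and 62.0 CPM in IP and 26.9, 30.1 and 28.6 CPM in input. Its fractions did not overlap in either genotype, with a log2 fold change of 0.83 in mutants (edgeR adjusted p = 0.0595) and 1.07 in wild type (edgeR adjusted p = 0.00919).

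Rad18 had 240, 200, 160 and 171 CPM in mutant IP and 73.5, 62.9, 105 and 79.9 CPM in mutant input. In wild type it had 210, 181 and 189 CPM in IP and 75.03, 81.6 and 75.3 CPM in input. All 7 animals were higher in IP with no overlap, at a log2 fold change of 1.27 in mutants (SE 0.22, edgeR adjusted p = 0.0197) and 1.32 in wild type (SE 0.10, edgeR adjusted p = 0.00682). The RecQ helicase genes Blm and Wrn, which unwind recombination intermediates, were called higher in wild type (log2 0.71 and 0.68, edgeR adjusted p = 0.0224 and 0.0323) and were at 0.06 and -0.27 in mutants (edgeR adjusted p = 0.875 and 0.706). Of the joint molecule nucleases, Eme1 was called in wild type (log2 1.33, edgeR adjusted p = 0.0245), while its partner Mus81 (log2 1.02, edgeR adjusted p = 0.0507) and Gen1 (log2 0.46, edgeR adjusted p = 0.220) were not. Rif1, an end protection factor gene, had 23.6, 50.4, 82.8 and 10.2 CPM in mutant IP and 35.2, 33.2, 21.8 and 28.5 CPM in mutant input, so that the fractions overlapped. In wild type it was the single member called lower in IP (log2 -1.18, SE 0.21, edgeR adjusted p = 0.0326), with 44.5, 9.93 and 19.7 CPM in IP and 79.8, 32.0 and 40.3 CPM in input. In wild-type animal 121, the longest Rif1 transcript held 55.0% of the gene's input counts and 0.46% of its IP counts. The call was not tested without that transcript. Trp53bp1, which acts with Rif1, was not called.

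**Figure D2:**
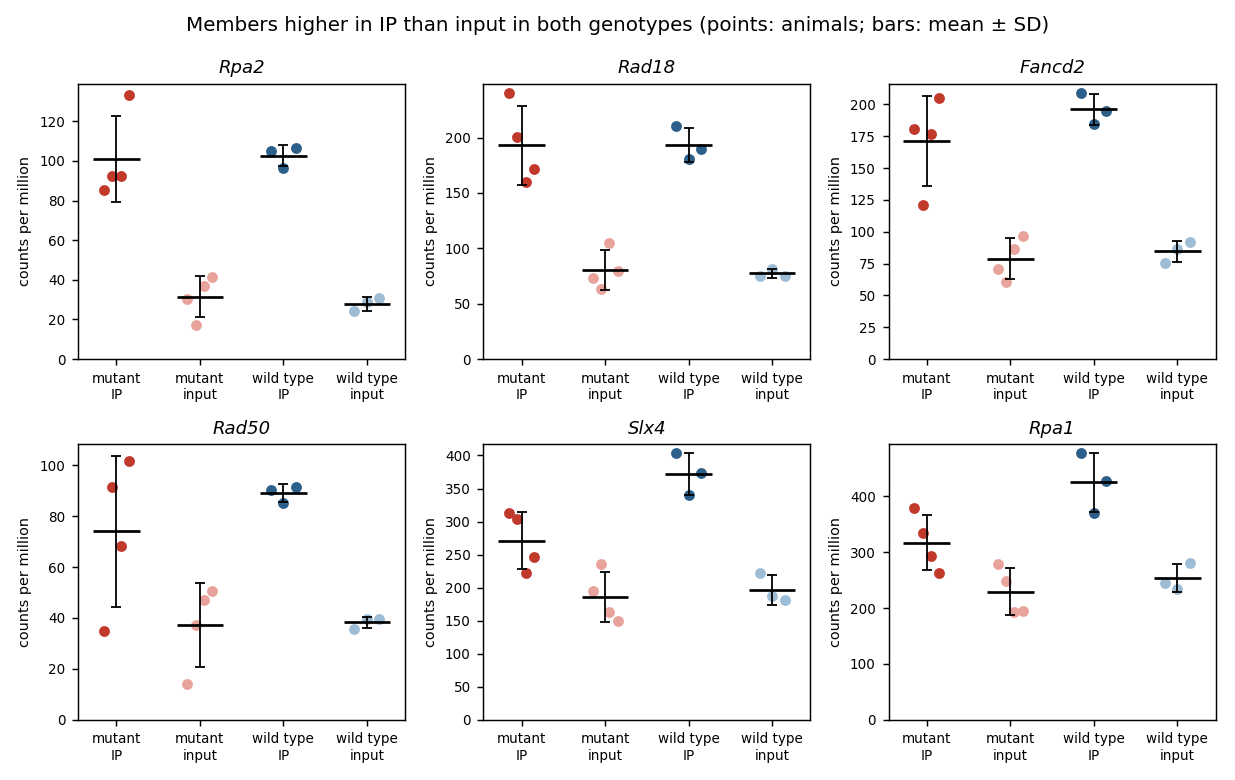
CPM of the 6 members called higher in IP than in input in both genotypes (vertical axis from 0; points are animals, bars the mean and SD). Wild-type IP lies above wild-type input with no overlap for each of the 6, and in mutants Rpa2, Rad18 and Fancd2 keep the fractions apart while Rad50, Slx4 and Rpa1 overlap.

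Across the 39 members tested in both genotypes, mutant and wild-type log2 IP/input had a Pearson r of 0.52 and a Spearman rho of 0.65, given as a description across genes, which are not independent replicates; the animals are separate but each fold rests on its own scaling. Of the 39 members, 27 had the same sign in both, and 17 of the 19 called higher in wild type were above 0 in mutants. A list of 54 other repair genes of the same pathways, 53 of them tested, had 11 called higher and 1 lower in mutants and 29 higher and 1 lower in wild type, with medians of 0.46 and 0.86. Of these, H2afx, the gene of the histone variant phosphorylated at breaks, had a log2 IP/input of 3.81 in mutants (edgeR adjusted p = 0.00187) and 3.89 in wild type (edgeR adjusted p = 0.0289). Mdc1, whose product binds that phosphorylated histone, had 1.27 in mutants (edgeR adjusted p = 0.00179) and 1.47 in wild type (edgeR adjusted p = 0.00634). The study singled out Mdc1 from these samples, so that it is no independent evidence of direction. From ratios of IP TPM to input TPM, the paper reported increased ribosome association of Mdc1 in mutants. The values given here rest on each genotype's own scaling. In wild type that scaling places IP/input 0.28 to 0.43 log2 units above a scaling shared by all libraries. The Mdc1 values therefore do not compare the genotypes. Rmi1, a BLM partner gene, was lower in IP in both, at -1.31 (edgeR adjusted p = 0.00887) and -0.78 (edgeR adjusted p = 0.0138).

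The second question was whether loss of ADAD2 changed the abundance of these transcripts. In input, edgeR called 0 of 40 members higher or lower in mutants, where 0.00547% of all features were higher and 0.00273% lower. Before adjustment, 1 member lay above and 3 lay below wild type at a p under 0.05. Of all 36572 features, 585 lay above and 1740 below at that p. The median member was at log2 -0.18, and all features tested were at -0.18 as well. DESeq2 called 1 member higher, Brca2, and 0 lower, where 0.962% of features were higher and 2.16% lower. For 27 of 40 members the estimate with 2 SE on either side stayed within a 2-fold change. The same held for 19 of 39 members between genotypes in IP and 18 of 37 for the genotype difference in IP/input.

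Brca2 had 234, 230, 265 and 235 CPM in mutant input and 181, 203 and 192 CPM in wild-type input. All 4 mutants lay above all 3 wild types, with a log2 fold change of 0.33 (SE 0.10, edgeR adjusted p = 0.352; DESeq2 adjusted p = 0.00131). Rpa1 had 262, 234, 187 and 189 CPM in mutant input and 288, 271 and 332 CPM in wild-type input, all mutants lower (log2 -0.45, SE 0.15, edgeR adjusted p = 0.467). Rif1 had 33.0, 31.3, 21.0 and 27.6 CPM in mutant input and 93.5, 37.2 and 47.6 CPM in wild-type input, again with no overlap (log2 -1.07, SE 0.33, edgeR adjusted p = 0.390). In wild-type animal 121, 51.5 of the 93.5 CPM of Rif1 came from its longest transcript, which gave at most 0.190 CPM in each of the other 13 libraries. Without that transcript Rif1 was at 32.9, 31.2, 21.0 and 27.5 CPM in mutant input and 42.0, 37.1 and 47.4 CPM in wild-type input. Slx4 had 182, 222, 158 and 145 CPM in mutant input and 260, 218 and 214 CPM in wild-type input, and the ranges overlapped (log2 -0.38, SE 0.16, edgeR adjusted p = 0.765). Trp53bp1 had 89.0, 93.9, 107 and 76.8 CPM in mutant input and 80.0, 72.6 and 68.8 CPM in wild-type input, also overlapping (log2 0.31, edgeR adjusted p = 0.836).

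Counted by ranges, 2 members were higher in every mutant input than in every wild-type input (Brca2 and Rpa3) and 3 lower (Rad51b, Rpa1 and Rif1), where 2.57% and 11.3% of all features tested did so. With 4 against 3 animals a 2-sided exact permutation test cannot go below p = 0.0571, the value each of these 5 members reached. Rpa3 had 12.6, 23.7, 12.7 and 10.2 CPM in mutant input and 7.73, 9.79 and 8.38 CPM in wild-type input. Rad51b was at 0, 0, 0.373 and 0.171 CPM against 0.548, 0.580 and 0.464 CPM, under 1 CPM in each.

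**Figure D3:**
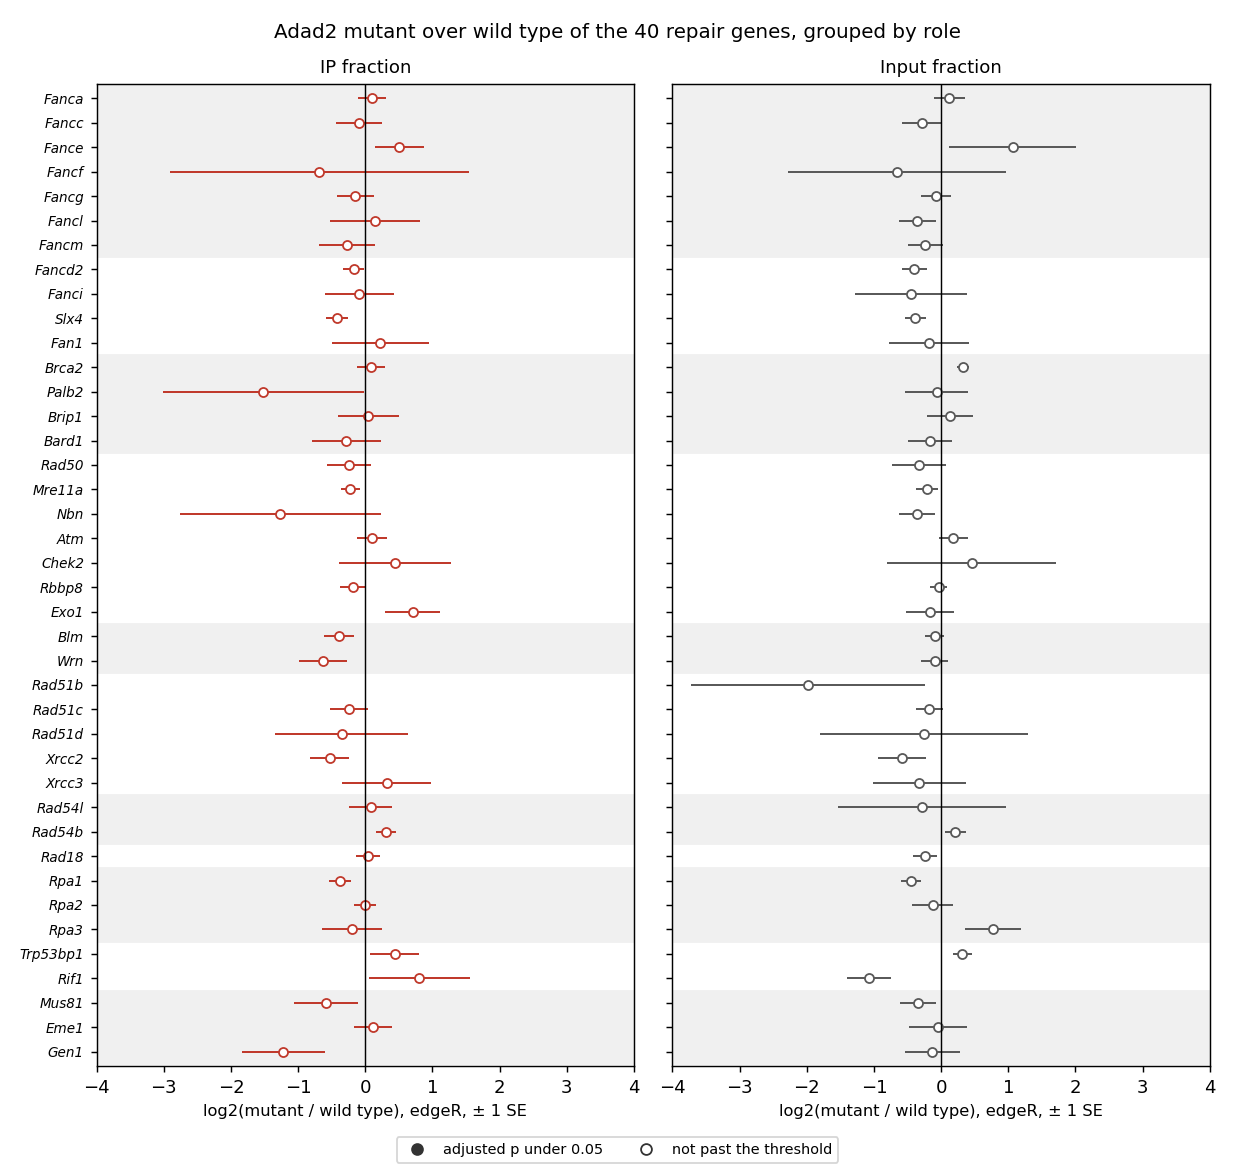
Log2 mutant over wild type of each member in IP and in input (horizontal axis, edgeR estimate with 1 SE either way, cut at 4 on each side), grouped by role in shaded bands. Every point is open, since 0 members had an adjusted p under 0.05 in either fraction. Above 0 lie 16 of 39 members in IP and 9 of 40 in input, where 41.0% and 39.8% of all features tested do so.

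In IP, edgeR called 0 of the 39 members tested higher or lower in mutants, where 0.00382% of all features were higher and 0.00382% lower. Before adjustment, 0 members lay above and 1 lay below wild type at a p under 0.05. Of all 26186 features, 352 lay above and 2695 below at that p. The member median was log2 -0.15, as over all features tested (-0.15). DESeq2 called 1 member higher, Rad54b, and 0 lower, where 1.63% of features were higher and 7.94% lower. Rad51b, at 0 in all 4 mutant IP libraries, was not tested.

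Slx4 had 308, 303, 204 and 223 CPM in mutant IP and 363, 331 and 346 CPM in wild-type IP. The mutants were all lower (log2 -0.42, SE 0.17, edgeR adjusted p = 0.349). Rad54b had 75.5, 58.2, 68.0 and 73.8 CPM in mutant IP and 52.9, 57.0 and 57.5 CPM in wild-type IP, all mutants being higher (log2 0.30, SE 0.15, edgeR adjusted p = 0.590; DESeq2 adjusted p = 0.0376). Gen1, a resolvase gene, had 3.99, 3.11, 7.91 and 8.20 CPM in mutant IP and 13.6, 12.5 and 14.4 CPM in wild-type IP, without overlap (log2 -1.22, SE 0.61, edgeR adjusted p = 0.614). Rpa1 had 373, 334, 268 and 239 CPM in mutant IP and 429, 360 and 396 CPM in wild-type IP, and Xrcc2 had 14.9, 18.3, 16.6 and 25.6 CPM and 23.9, 26.0 and 31.7 CPM; both overlapped (log2 -0.38 and -0.53, edgeR adjusted p = 0.445 and 0.722). By ranges, 1 member was higher in every mutant (Rad54b) and 3 lower (Slx4, Gen1 and Palb2), where 1.96% and 14.5% of all features tested did so. Palb2 had 11.4, 11.1, 2.89 and 0 CPM in mutant IP and 13.0, 18.1 and 23.2 CPM in wild-type IP.

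**Figure D4:**
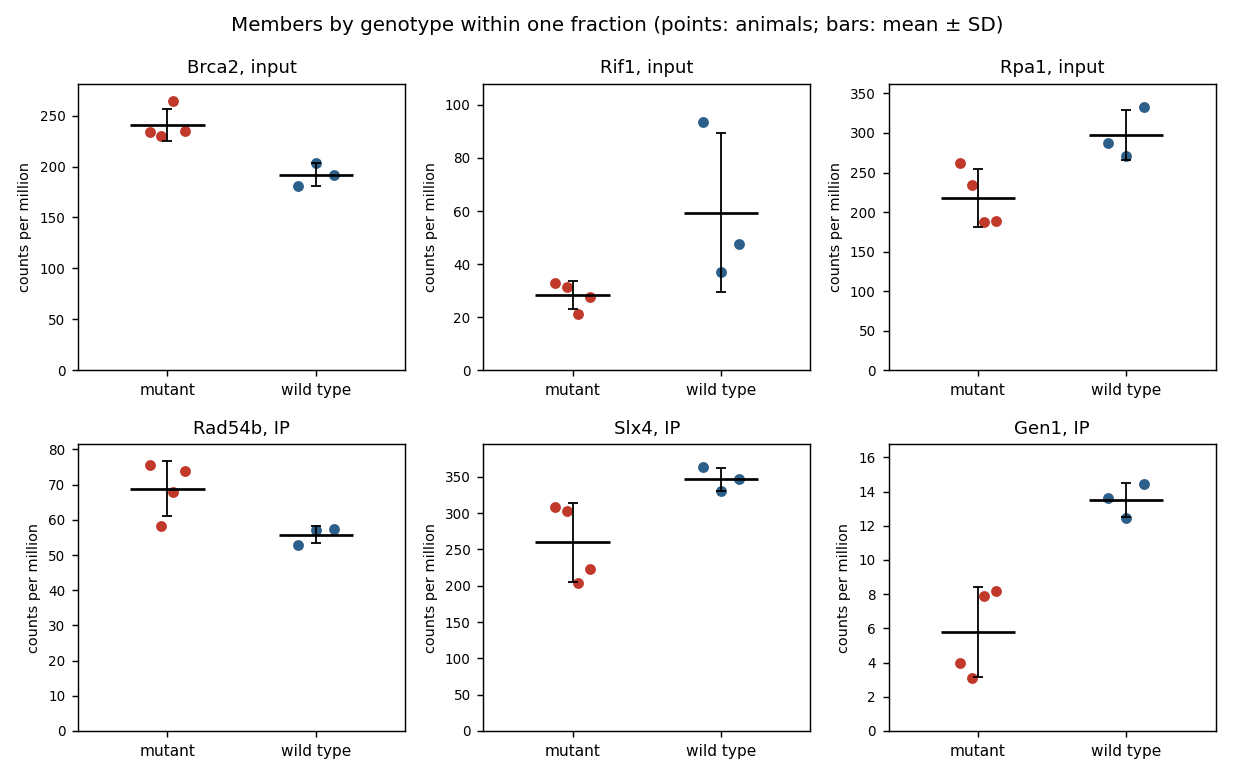
CPM of Brca2, Rif1 and Rpa1 in input and of Rad54b, Slx4 and Gen1 in IP by genotype (vertical axis from 0; points are animals, bars the mean and SD). Mutant and wild-type points do not overlap in any of the 6 panels, and none of the 6 differences passed the edgeR test.

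The third question was whether the ribosome association of members, the IP/input ratio, differed between genotypes. Here all 14 libraries shared 1 scaling, on which the IP/input of wild-type animals was 0.28 to 0.43 log2 units below that of the wild-type scaling used above, and that of mutants differed by -0.02 to 0.06. Of the 37 members tested, edgeR called 0 higher and 0 lower in mutants, where 0% of all 16069 features were higher and 0% lower. An unadjusted edgeR p under 0.05 was reached by 0 members, and by 76 of all features above and 1085 below. DESeq2 called 0 members higher and 0 lower as well, where 0.218% of features were higher and 5.86% lower. At an unadjusted DESeq2 p under 0.05, 2 members lay above and 1 below, and 217 of all features above and 2189 below. The median member difference was -0.02, against -0.29 over all features tested. With at least 10 counts in every library both medians lay near 0 (0.061 for 33 members and 0.020 for 9784 features). On the per-animal TPM ratio the median member was at 0.40, with 28 of 37 above 0, and all features at -0.029, with 48.6% above 0. On that ratio limma called 0 members. At an unadjusted limma p under 0.05, 1 member lay above and 0 below, and 354 of all features above and 697 below.

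The 5 members with the smallest p were Rif1, Exo1, Blm, Gen1 and Fancd2. Rif1 had a log2 IP/input of -0.62, 0.62, 1.87 and -1.53 in mutants and -1.27, -1.95 and -1.35 in wild type (difference 1.6, SE 0.79, edgeR adjusted p = 0.746), the mutants spreading over both sides of 0. In wild-type animal 121, at -1.27, the longest transcript held 55.0% of the Rif1 input counts. Exo1, a resection nuclease gene, had 0.43, 0.11, -0.28 and 0.24 in mutants and -0.995, -0.81 and -0.59 in wild type, without overlap (difference 0.93, edgeR adjusted p = 0.753). Gen1 had -1.62, -0.99, -0.78 and -0.68 in mutants and 0.20, -0.02 and 0.18 in wild type, also without overlap (difference -1.15, edgeR adjusted p = 0.804). Blm had 0.13, 0.19, -0.26 and 0.05 in mutants and 0.39, 0.24 and 0.48 in wild type (difference -0.34, edgeR adjusted p = 0.796). The Blm direction turned to 0.61 where TPM values replaced counts. Fancd2 differed by 0.21 (edgeR adjusted p = 0.895). Counted by ranges, 1 member was higher in every mutant and 2 were lower, where 1.29% and 8.38% of all features tested did so.

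How members varied among animals differed by genotype. Among members averaging at least 100 counts, the median SD of log2 CPM was 0.50 in mutant IP, 0.39 in mutant input, 0.17 in wild-type IP and 0.12 in wild-type input, against 0.51, 0.43, 0.19 and 0.17 over all annotated genes at that level. An SD above 1 was found for 7 of 38 members in mutant IP and 3 of 37 in mutant input (18.4% and 8.11%, against 24.9% and 17.9% of genes), and for 0 of 38 and 0 of 36 in the wild-type fractions. Nbn was the extreme in mutant IP, with 0, 35.1, 9.49 and 9.11 CPM, and Rad54l in mutant input, with 5.80, 0.0262, 16.6 and 14.9 CPM. Fanci had 2.42 CPM in the input of mutant 12 and 45.2 to 56.6 CPM in the other 3 mutant inputs.

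The transcripts behind the gene sums also differed between genotypes. The same measures were not computed over all genes, so the values below do not set members apart from other genes. Of the 285 member transcripts, 85 to 113 had at least 1 count in mutant IP and 147 to 159 in wild-type IP. In input the numbers were 97, 99, 142 and 176 in mutants and 166 to 174 in wild type, so that mutants 12 and 69, the libraries with fewer genes above 0, were the low ones. Transcripts annotated as protein coding took 87.4, 85.4, 77.2 and 82.8% of member counts in mutant IP and 89.8 to 91.1% in wild-type IP. In input they took 85.6, 83.5, 87.2 and 88.2% in mutants and 89.3 to 90.2% in wild type, with no overlap in either fraction (exact permutation p = 0.0571 in each, the smallest possible). Retained intron transcripts took 4.29 to 7.38% in mutant input and 3.53 to 4.01% in wild-type input, and 2.31 to 3.63% in mutant IP and 2.30 to 2.49% in wild-type IP. Pairs of mutant libraries shared the most abundant transcript for a median of 61.6% of members in IP and 63.4% in input, against 81.1 and 88.6% in wild-type pairs. Within mutant IP the number of annotated genes above 0 was 13198, 12744, 15024 and 14905 in the same order of animals. How the protein coding share relates to that number was not tested.

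**Figure D5:**
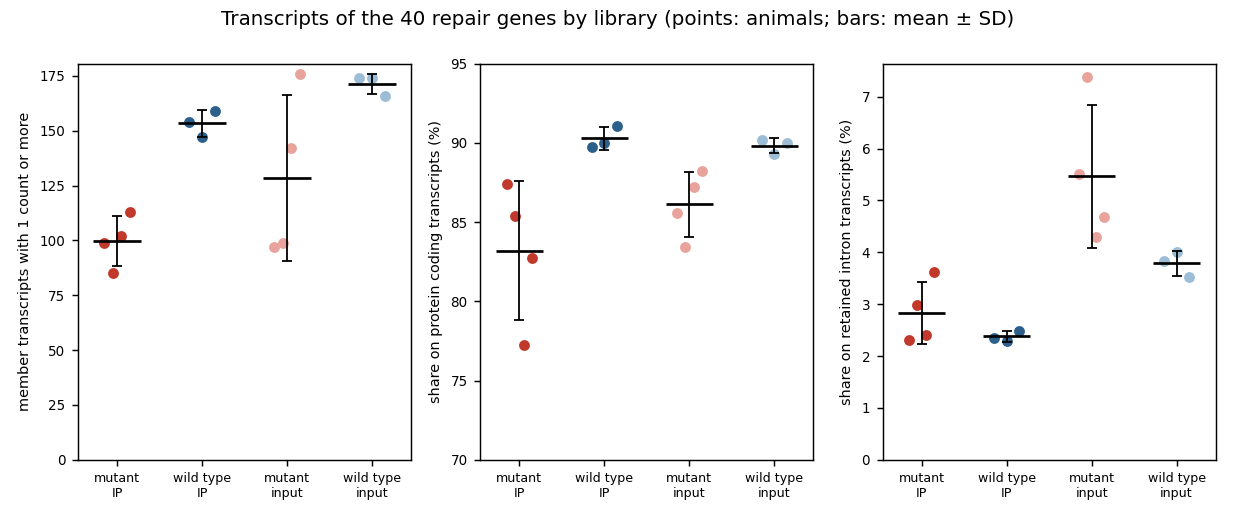
Member transcripts with at least 1 count, share of member counts on protein coding transcripts (axis from 70%) and on retained intron transcripts, by library (points are animals, bars the mean and SD). Mutant IP has 85 to 113 transcripts and wild-type IP 147 to 159, and the protein coding share is lower in every mutant than in every wild-type library of the same fraction.

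Some members had a different transcript mix in IP than in input in every animal. Of 140 transcripts of 32 members that were deep enough, 5 took a larger share of their gene in IP than in input in all 7 animals, and 6 a smaller one. Shares within a gene add up to its whole, so the 5 and the 6 are not independent of each other. The numbers over all genes, or expected by chance, were not counted. For Fancd2, Fancd2-208 (4707 bases) took 77.0 to 100% of the gene in mutant IP, 47.4 to 80.1% in mutant input, 84.6 to 91.2% in wild-type IP and 59.8 to 69.6% in wild-type input, while the longer Fancd2-201 (5512 bases) took less in IP. For Mre11a, the shorter Mre11a-201 (3286 bases) took 70.9 to 90.5% in mutant IP, 46.3 to 64.5% in mutant input, 81.7 to 91.7% in wild-type IP and 57.7 to 66.4% in wild-type input, and Mre11a-202 (5660 bases) took less in IP. Rad18-207, a short protein coding model of 724 bases, took 24.4 to 37.1% of Rad18 in mutant IP, 0 to 17.1% in mutant input, 17.7 to 28.9% in wild-type IP and 5.16 to 10.7% in wild-type input. For Mus81, a nuclease gene, Mus81-201, annotated as a nonsense-mediated decay target, took 88.5 to 100% in mutant IP, 0 to 8.69% in mutant input, 31.4 to 43.5% in wild-type IP and 0% in each wild-type input. Mus81-202, the protein coding model, took 0% in mutant IP, 19.8 to 100% in mutant input, 35.6 to 65.5% in wild-type IP and 80.0 to 90.3% in wild-type input. These shares are model estimates for transcripts that overlap in sequence, and they are given as a description of the 7 animals.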

How the data were processed

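RNA of 21-day testis was sequenced as strand-specific ribosomal RNA-depleted libraries. The authors deposited 1 RSEM table per library (RSEM version 1.3.3 and mouse GRCm38, per the submitters' processing notes), with an expected count and a TPM value per transcript. The authors used Ensembl transcripts to which they had added testis transcripts assembled from reads of isolated testicular cell types. The tables hold 133849 Ensembl rows, of which 133445 matched GENCODE M21, the source of gene symbols here, 48888 assembled rows and 92 spike-in rows. Reads of a member gene placed on an assembled row are not in its value, and spike-in rows stayed out of library sizes.

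Expected counts were summed by gene symbol (102531 features), rounded, filtered with filterByExpr, scaled with TMM and tested with the quasi-likelihood test of edgeR 4.0.16 (R 4.3.3). Genotypes were compared within input and within IP, and IP with input within each genotype with the animal as a block, since both libraries come from the same lysate. The genotype difference in IP/input was an interaction term over 14 libraries, on features above 0 in every input. Deviations of an animal's input and IP from their group means had correlations of 0.0305, 0.0315, 0.0297 and 0.0548 in mutants 12, 69, 93 and 94, and 0.0999, 0.145 and 0.0782 in wild-type animals 121, 140 and 17. CPM printed for a comparison use the scaling of that comparison, and ratios per animal add 0.1 CPM to both fractions. Standard errors are those implied by the F test. The same fit recovered large changes in simulated counts, where every feature had the same relative spread between libraries. The simulation was not run for IP against input in mutants or for genotype within IP. It did not hold the wider spread of the mutant libraries, so it does not show how the fits behave on them. Alternatives were RLE scaling, DESeq2 1.42.0, other filters, limma 3.58.1 on log2(TPM + 0.1) and log2(TPM + 1), a threshold of 0.01, no block, and leaving out animals; the study's own EBSeq test was not used here. Permutation tests were exact and 2-sided (scipy 1.17.1).

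Per-library values are given for the 5 members with the smallest p in each comparison and for called members up to 10, and others are summarised or were chosen after their values were seen (Rpa3, Palb2, Nbn, Fanci, Rad51b and the transcripts). Members and lists were chosen with earlier results of these data known. The number of animals was small, and members spread more widely among mutants than among wild-type animals. The parts of counting error and of this spread in the precision were not separated.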

Additional observations from a re-analysis of the deposited data

Results flagged for a closer look

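Among the reported members, 3 values in groups of 4 mutants lay far from the other 3 by Dixon's test, which chance gives in about 1 in 20 groups; 54 groups were examined. Brca2 in the input of mutant 93 was at 264.7 CPM, with the other 3 mutants at 230 to 235 CPM. Rpa1 in mutant 93 had a log2 IP/input of 0.60, with the others at 0.42 to 0.44. Xrcc2 in mutant 69 had a log2 IP/input of 0.59, with the others at -0.44 to -0.39. Gen1 lay below input in all 4 mutants (log2 IP/input -1.57, -1.004, -0.73 and -0.62) and above it in all 3 wild-type animals (0.63, 0.26 and 0.50) on each genotype's own scaling, a difference of means of -1.44. On the scaling shared by all 14 libraries wild-type animal 140 was at -0.02, and the difference of -1.15 did not pass the edgeR test (adjusted p = 0.804).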

How the results depend on the processing

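Between genotypes, the members called by edgeR stayed at 0 under every alternative that used edgeR or limma in input, in IP and for IP/input, and DESeq2 called 1 in input and 1 in IP. In input the member median moved to -0.32 with limma on log2(TPM + 0.1) and to -0.032 without mutants 12 and 69, a setting chosen after seeing the data. In IP it moved to -0.0413 with RLE factors and -0.0414 with DESeq2, to 0.0063 with at least 10 counts in every library, and to 0.071 and 0.069 with limma on log2(TPM + 0.1) and on log2(TPM + 1). Leaving out 1 animal gave -0.20 to -0.057 in IP. Without mutants 12 and 69 the IP median was -0.11, and edgeR called 0 of 40 members. At an unadjusted edgeR p under 0.05, 1 member then lay above and 8 below wild type. Of all 30987 features, 855 lay above and 5651 below at that p. For IP/input the median moved to 0.06 with at least 10 counts in every library, to 0.40, 0.37 and 0.40 on TPM (plus 0.1, plus 1 and per-animal ratios), to -0.24 without mutants 12 and 69, and ranged from -0.17 to 0.0092 leaving out 1 animal. Blm reversed on those TPM scales, at 0.61, 0.60 and 0.61. For IP/input without mutants 12 and 69, 0 members lay above and 2 below at an unadjusted edgeR p under 0.05. Of all 27884 features, 275 lay above and 3776 below at that p. After adjustment, 0 members and 74 features were called lower. The causes were not tested.

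For IP against input in mutants, the members called numbered 2 at an adjusted p under 0.01 (976 of 22918 features), 3 with RLE factors (2116 of 22918), 15 with DESeq2 (10039 of 22918), 3 with no filter (1794 of 57202), 17 and 18 with limma on TPM plus 0.1 and plus 1 (6100 and 6335 of 22918), 0 without mutants 12 and 69 (12 of 31795), and 1 to 3 leaving out 1 animal (961 to 1585 features). Requiring 10 counts or more per library, 8 members were higher and 1 lower of 33, where 1960 features were higher and 1977 lower of 9872. The member median was 0.38 with RLE factors and with DESeq2, 0.35 with at least 10 counts in every library, 1.51 and 1.40 on TPM, 0.23 without mutants 12 and 69, and 0.30 to 0.49 leaving out 1 animal. In wild type the members called numbered 10 at an adjusted p under 0.01 (2176 of 34864 features), 31 with DESeq2 (18846 of 34864), and 0 to 11 leaving out 1 animal (0 to 3754 features); the median was 0.72 with at least 10 counts in every library, 1.40 and 1.20 on TPM, and 0.75 to 0.88 leaving out 1 animal. On TPM plus 0.1 the median of all features was 0.34 in mutants and -0.07 in wild type, against -0.63 and -0.60. Without the animal as a block, 5 members were called in mutants and 23 in wild type. Of the single members' alternative values, 361 kept their call, 57 lost it and 2 gained it. Fits without 1 of 3 wild-type animals leave 2, with few degrees of freedom. On TPM the protein coding share of members was 68.3% in mutant input and 77.9% in wild-type input, and 61.5% in mutant IP and 77.1% in wild-type IP.

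Rad51b and Fancf were under 5 CPM in every library, so that little can be said of a few-fold difference there. Between genotypes, the SE of the log2 fold change exceeded 1 for 5 of 40 members in input and 3 of 39 in IP. For the genotype difference in IP/input it did so for 6 of 37. For IP against input it did so for 10 of 39 in mutants and 1 of 40 in wild type. The part of depth in these errors was not tested.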
